A study of Mus musculus with 4 samples.

Results

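The subject was 8891 distal elements of mouse liver nuclei, open chromatin regions that were present at every time point and lay far from any protein-coding gene. Overlapping or adjoining peaks of 4 scATAC-Seq libraries gave 200890 merged regions. Of these, 64118 held a peak in every library and 62837 of them were autosomal. A shared autosomal region was kept when its centre was at least 50 kb from every protein-coding transcription start site (TSS) and outside every protein-coding gene body, by the GENCODE vM21 annotation of GRCm38 (mm10). The rule used position and the presence of a peak but no level of accessibility. These elements were compared with 12539 promoters, shared autosomal regions centred within 1 kb of a protein-coding TSS, and with the other 41407 shared autosomal regions.

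scATAC-Seq marks open chromatin, because Tn5 transposase cuts accessible DNA, and a droplet barcode assigns each fragment to a nucleus. Nuclei were from liver hepatocytes of adult male C57BL/6J mice (10 to 12 weeks old by the labels). The groups were PHx 0 h, undamaged liver, and PHx 48 h, 72 h and 96 h, where PHx is partial hepatectomy, after which the remaining liver regrows, and each group is 1 library. Hepatocytes were freed by collagenase perfusion, a procedure that keeps few other liver cells, and no genetic change or drug was involved. The libraries of 0 and 48 h came from 1 preparation each, and the 48 h preparation from 1 mouse, while pooling of animals at 72 and 96 h was not stated. With 1 library per time point, time and library cannot be told apart, and intervals in the text cover counting error only.

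Distal elements are the stretches of open chromatin in which enhancers and insulators are found. Enhancers carry binding sites for transcription factors and can act on genes over long distances through chromatin loops, while CTCF, an insulator protein, holds the ends of such loops and binds much the same sites in most cell types. In hepatocytes, enhancers are known to be bound by FOXA, HNF4A, C/EBP and HNF1 factors, which set liver-specific expression, and promoters more often carry GC-rich motifs that are used in all cells.

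The sequences below show what such elements look like, and those of Irx4, Cdk15 and Asap1 were chosen after their values were seen. Each is the 300 bp around the middle of the stretch that all peaks of the element share, on the + strand of the GRCm38 reference genome, and an element is named by its nearest protein-coding gene and its distance to that TSS, which does not mean that it acts on that gene. Capitals mark letters of CTCF (CCANNAGNNGGC), FOXA (TGTTTAC), HNF4A (CAAAGTCCA), C/EBP (TTGCNNAA), HNF1 (GTTAATNATT) and AP-1 (TGANTCA) motifs on either strand, where N is any base. A match is a description of the letters and does not show that a factor is bound. The first set holds CTCF letters without those of the 4 liver factors. Irx4 100 kb lies at chr13:73160299-73160598 and Cdk15 69.4 kb at chr1:59368120-59368419.
Irx4 100 kb: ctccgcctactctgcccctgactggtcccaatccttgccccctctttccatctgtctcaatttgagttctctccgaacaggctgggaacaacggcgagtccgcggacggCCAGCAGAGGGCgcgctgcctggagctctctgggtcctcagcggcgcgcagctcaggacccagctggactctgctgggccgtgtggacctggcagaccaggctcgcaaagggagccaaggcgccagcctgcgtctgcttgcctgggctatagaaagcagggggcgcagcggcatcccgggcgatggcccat
Cdk15 69.4 kb: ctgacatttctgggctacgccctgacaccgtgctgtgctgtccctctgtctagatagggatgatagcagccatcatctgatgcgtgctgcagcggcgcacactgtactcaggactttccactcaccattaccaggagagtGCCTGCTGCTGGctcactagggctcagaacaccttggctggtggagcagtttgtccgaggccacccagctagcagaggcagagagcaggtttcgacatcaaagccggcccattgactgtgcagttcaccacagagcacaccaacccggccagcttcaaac

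The second set holds letters of liver factors in elements with a higher level in hepatocyte-like than in other nuclei, described below. Slc10a2 74.3 kb lies at chr8:5030952-5031251, Asap1 65.9 kb at chr15:64448764-64449063 and Spag9 50.3 kb at chr11:94136093-94136392. In Asap1 65.9 kb the HNF4A letters are read on the opposite strand and follow a C/EBP match.
Slc10a2 74.3 kb: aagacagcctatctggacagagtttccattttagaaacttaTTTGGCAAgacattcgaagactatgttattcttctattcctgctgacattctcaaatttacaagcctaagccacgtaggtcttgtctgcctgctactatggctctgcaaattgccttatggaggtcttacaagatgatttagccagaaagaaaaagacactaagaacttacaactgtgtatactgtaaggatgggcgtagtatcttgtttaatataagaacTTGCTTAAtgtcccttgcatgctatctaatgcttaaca
Asap1 65.9 kb: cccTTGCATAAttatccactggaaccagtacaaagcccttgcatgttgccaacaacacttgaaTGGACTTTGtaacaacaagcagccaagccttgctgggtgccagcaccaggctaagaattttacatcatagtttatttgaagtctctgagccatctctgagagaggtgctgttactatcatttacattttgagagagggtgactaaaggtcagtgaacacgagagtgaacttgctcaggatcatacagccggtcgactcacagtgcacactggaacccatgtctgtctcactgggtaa
Spag9 50.3 kb: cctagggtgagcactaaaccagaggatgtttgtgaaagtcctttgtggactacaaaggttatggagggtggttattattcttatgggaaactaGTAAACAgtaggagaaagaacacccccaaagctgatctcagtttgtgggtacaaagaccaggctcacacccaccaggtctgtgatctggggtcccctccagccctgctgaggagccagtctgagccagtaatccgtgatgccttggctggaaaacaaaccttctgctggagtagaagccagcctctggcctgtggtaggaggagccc

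The third set is shown because these elements hold C/EBP letters and were named for their ratio of 48 to 0 h, by a rule that took the 5 highest and the 5 lowest among elements with peaks of nearly equal length (within 10%). Pik3c2g 53.9 kb (chr6:139971600-139971899) and Sox9 308 kb (chr11:113090168-113090467) were higher at 48 h, and Cldn1 112 kb (chr16:26248388-26248687) and Lpp 169 kb (chr16:24223634-24223933) were lower. All 4 hold C/EBP letters, on both strands at once in Sox9 308 kb, and Cldn1 112 kb holds HNF1 letters as well.
Pik3c2g 53.9 kb: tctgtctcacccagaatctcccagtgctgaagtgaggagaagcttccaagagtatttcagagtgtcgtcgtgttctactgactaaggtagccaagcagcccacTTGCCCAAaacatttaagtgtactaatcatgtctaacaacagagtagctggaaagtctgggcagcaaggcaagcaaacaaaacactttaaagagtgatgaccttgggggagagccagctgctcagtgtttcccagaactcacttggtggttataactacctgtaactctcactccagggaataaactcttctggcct
Sox9 308 kb: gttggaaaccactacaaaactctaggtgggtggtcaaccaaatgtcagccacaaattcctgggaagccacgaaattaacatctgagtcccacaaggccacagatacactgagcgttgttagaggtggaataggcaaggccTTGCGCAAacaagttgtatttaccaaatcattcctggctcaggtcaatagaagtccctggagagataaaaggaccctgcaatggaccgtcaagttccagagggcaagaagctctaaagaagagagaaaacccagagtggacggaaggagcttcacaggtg
Cldn1 112 kb: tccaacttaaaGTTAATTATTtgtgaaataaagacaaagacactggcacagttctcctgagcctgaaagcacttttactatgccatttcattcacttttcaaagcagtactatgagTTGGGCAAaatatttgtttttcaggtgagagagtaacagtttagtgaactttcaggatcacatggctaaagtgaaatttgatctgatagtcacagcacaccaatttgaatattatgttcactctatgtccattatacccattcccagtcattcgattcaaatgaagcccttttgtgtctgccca
Lpp 169 kb: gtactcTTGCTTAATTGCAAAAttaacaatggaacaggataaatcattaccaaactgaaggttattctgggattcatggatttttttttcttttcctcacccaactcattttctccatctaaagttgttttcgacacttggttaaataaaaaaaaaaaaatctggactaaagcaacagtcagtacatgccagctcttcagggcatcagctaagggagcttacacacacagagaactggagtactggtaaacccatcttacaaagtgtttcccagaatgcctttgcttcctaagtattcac

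The last sequence is an element with a higher level in other than in hepatocyte-like nuclei, Akr1e1 162 kb at chr13:4771515-4771814. It holds 2 AP-1 matches, FOXA letters and, not in capitals, the ETS letters CAGGAAGT on the opposite strand, and its centre is 2 bp from the TSS of the long noncoding RNA (lncRNA) Gm5444.
Akr1e1 162 kb: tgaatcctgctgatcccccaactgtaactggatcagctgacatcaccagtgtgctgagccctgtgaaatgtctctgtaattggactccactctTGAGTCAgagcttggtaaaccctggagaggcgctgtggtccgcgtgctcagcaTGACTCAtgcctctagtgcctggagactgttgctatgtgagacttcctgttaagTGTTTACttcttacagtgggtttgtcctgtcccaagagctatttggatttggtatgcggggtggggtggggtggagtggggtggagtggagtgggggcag

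Depth and the classes of nuclei set how well the elements could be measured. The libraries held 136949314, 62553202, 25540258 and 15809769 counts (cut sites in peaks) at 0, 48, 72 and 96 h, and 3977, 3892, 4256 and 3224 barcodes with at least 1000 counts, called nuclei here. Nuclei were clustered on shared regions that are neither distal elements nor promoters. Of 8 clusters, 6 were hepatocyte-like by 10 hepatocyte markers and 2 made up the other nuclei, 292, 214, 281 and 80 in number (7.34%, 5.50%, 6.60% and 2.48%). The hepatocyte markers summed to between 4747 and 6679 CPM (counts per 1000000 counts in shared autosomal regions of that library and class) in hepatocyte-like nuclei and to between 867.1 and 1071 CPM in other nuclei, where none was at 0. Only Apoh at 96 h was higher in other nuclei, with 84.3 CPM in hepatocyte-like and 126.5 CPM in other nuclei. The 9 endothelial markers with a shared region summed to 374.2 to 497.9 CPM against 758.4 to 1104 CPM in other nuclei, and 4 myeloid markers to 167.8 to 234.6 against 252.9 to 567.7 CPM. At 0, 48, 72 and 96 h, 7, 7, 8 and 4 of the 9 and 3, 3, 3 and 2 of the 4 were higher in other nuclei. Egfl7 gave 523.9 of the 767.8 endothelial CPM in other nuclei at 96 h, where 3 of the 9 were at 0. Stellate (6), biliary (3) and lymphocyte (1) markers summed to at most 161.3, 78.68 and 55.79 CPM, against at most 153.5, 54.2 and 111.9 CPM in other nuclei. The stellate sums changed direction, from 84.62 against 103.9 CPM at 0 h to 149.1 against 72.26 CPM at 96 h. Biliary sums were higher in hepatocyte-like nuclei and the lymphocyte marker in other nuclei at every time. The other nuclei stayed unnamed, and their mixture was not tested as a source of the differences below. They were shallow, with a median of 1281.5 to 3407 counts against 3779.5 to 28512 in hepatocyte-like nuclei, and between 2.18% and 2.72% of nuclei had a barcode that also passed in another library, 11 barcodes in all 4.

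The distal elements were poorer in GC and in CpG than promoters, many of which lie in GC-rich CpG islands, and close to other shared regions. Median GC content in the 300 bp window was 46.3% against 63.0% at promoters and 48.3% in other shared regions, and the ratio of observed to expected CpG was 0.20 against 0.74 and 0.22. The merged elements were shorter, with a median of 1037 bp against 2174 bp. Their median distance to a protein-coding TSS was 119 kb (interquartile range 74.5 to 223 kb, at most 2207 kb). They made up between 7.71% of shared regions on chromosome 19 and 22.0% on chromosome 13.

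Far from protein-coding genes did not mean far from all genes. The centre of 359 elements (4.04%) lay within 1 kb of a lncRNA TSS, 1362 more (15.3%) lay in a lncRNA gene body, and 7170 (80.6%) lay outside both. By the RefSeq annotation, 2362 elements (26.6%) overlapped a gene of any kind, 2032 of them a lncRNA and 99 a pseudogene. RefSeq places 154 elements (1.73%) in a gene that it calls protein-coding and that the GENCODE rule did not remove.

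Letters of liver factors were found more often in distal elements than in promoters. In the 300 bp windows C/EBP letters were in 22.6% of distal elements (95% exact interval 21.7 to 23.5%), 7.70% of promoters and 17.6% of other shared regions. FOXA letters were in 8.01%, 2.46% and 6.57%, HNF4A letters in 2.04%, 0.542% and 1.63%, and HNF1 letters in 1.88%, 0.295% and 1.14%, in the same order. For each of these 4 motifs the share was also above that of the other shared regions. CTCF letters were in 11.7% of distal elements, above the 4.83% of promoters but below the 13.8% of other shared regions.

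Motifs of promoters showed the opposite order. The GC box (GGGCGG), bound by SP and KLF factors, was in 6.24% of distal elements and 52.4% of promoters, and NRF1 letters (GCGCNTGCGC) in 0.180% and 4.43%. The PU.1 letters of myeloid cells (GAGGAAGT) were about as frequent in both, at 1.86% and 1.87%. Letters of AP-1, of TEAD (CATTCCA), of the factors of the GATA family (AGATAAG) and of ETS (CAGGAAGT) were in 12.1%, 6.33%, 4.89% and 3.05% of distal elements, against 4.50%, 2.25%, 1.43% and 2.50% of promoters. At least 1 of the 4 liver motifs was in 2787 elements (31.3%), and 212 of these also held CTCF letters. None of the 12 motifs was found in 3587 elements (40.3%), which says only that these letters are not in this window.

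**Figure D1:**
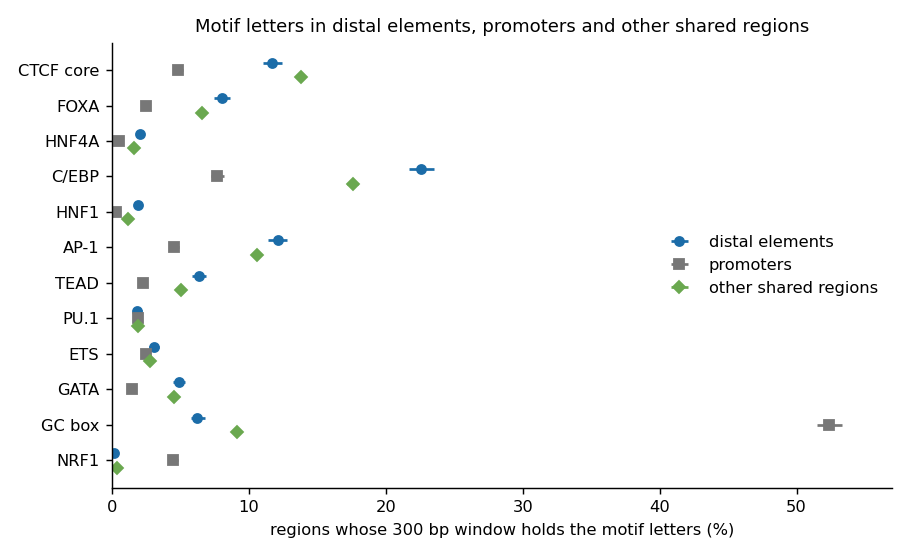
Share of windows of 300 bp that hold the letters of each of 12 motifs on either strand (x axis, percent), for 8891 distal elements (circles), 12539 promoters (squares) and 41407 other shared regions (diamonds), with exact 95% intervals. C/EBP letters were in 22.6% of distal elements and the GC box in 52.4% of promoters.

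Hepatocyte-like nuclei placed a larger share of their counts in distal elements than other nuclei did, in every library. Of all counts in shared autosomal regions, distal elements took 7.76%, 8.02%, 8.40% and 8.50% in hepatocyte-like nuclei at 0, 48, 72 and 96 h, and 5.03%, 5.28%, 5.69% and 5.59% in other nuclei. The lowest hepatocyte-like share was above the highest share in other nuclei. The ratio was 1.54 (95% interval 1.53 to 1.56), 1.52 (1.5 to 1.54), 1.48 (1.45 to 1.5) and 1.52 (1.47 to 1.58). Promoters stood the other way round, at 31.3%, 29.5%, 31.8% and 34.9% in hepatocyte-like nuclei and 46.8%, 42.6%, 42.9% and 48.1% in other nuclei, a ratio of 0.669 to 0.741. The remaining shared regions lay between, at a ratio of 1.16 to 1.27. A sign-flip test over 4 libraries cannot give a two-sided p below 0.125, so no test was made of these shares.

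The same order was seen in the medians over nuclei and in each cluster, although single nuclei of the classes overlapped. With every nucleus thinned to 1000 counts (3 to 78 nuclei per class and library fell short), the median share in distal elements was 7.8%, 8.1%, 8.5% and 8.5% in hepatocyte-like nuclei and 4.6%, 5.2%, 5.4% and 5.3% in other nuclei. The unthinned medians were 7.79%, 8.13%, 8.49% and 8.53% against 4.69%, 5.21%, 5.53% and 5.14%. The median number of distal elements with a count in a thinned nucleus was 69 to 73 in hepatocyte-like nuclei (26 to 110 in single nuclei) and 31 to 36 in other nuclei (9 to 76). The 6 hepatocyte-like clusters gave shares of 7.39% to 8.90% and the 2 clusters of other nuclei shares of 4.89% to 6.54%. In regions with 1 peak of nearly equal length (within 10%) in every library the ratio was 1.65 and 1.52 at 0 and 48 h but 0.922 and 0.886 at 72 and 96 h. Without the 5 highest elements of all, described below, this ratio was 1.21, 1.23, 1.25 and 1.29. All peaks were called in libraries made up mostly of hepatocyte-like nuclei (other nuclei were 2.48% to 7.34%), and the part of that selection in the ratio was not tested.

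**Figure D2:**
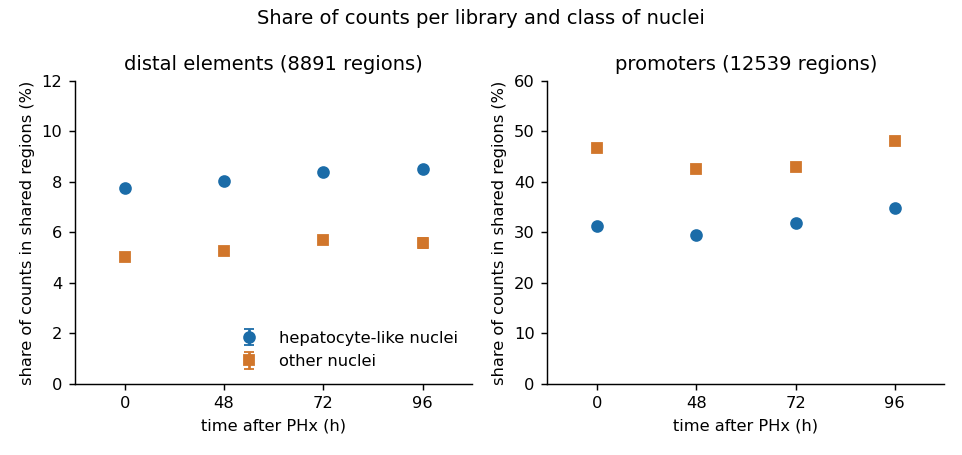
Share of the counts in shared autosomal regions (y axes, percent) that fell in distal elements (left) and promoters (right) at each time after PHx (x axes, h), for hepatocyte-like (circles) and other nuclei (squares). Error bars (exact 95% intervals for counting error) are smaller than the points. Distal elements took 7.76 to 8.50% in hepatocyte-like and 5.03 to 5.69% in other nuclei.

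Single elements were then compared between the classes, with the counts of each class summed per library and the library as a block in edgeR's quasi-likelihood test. Of 8889 elements tested, 2282 (25.7%) were higher in hepatocyte-like nuclei at an adjusted p below 0.05 and 145 (1.63%) were lower. Over all 62834 shared autosomal regions tested these shares were 18% higher and 3.68% lower, and at promoters 895 (7.14%) and 1121 (8.94%). The median fitted log2 ratio was 1.45 in distal elements, 0.63 in all regions and -0.28 at promoters. Of the elements called higher, 2165 were higher in each of the 4 libraries, and of those called lower, 109 were lower in each. Over all 8889 elements tested, 4354 were higher in each. An element without a count in other nuclei scores as higher wherever hepatocyte-like nuclei have a count, and 6922 elements had none at 96 h. The calls came from the same sums, so this agreement is a description and no support for them.

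Low counts in the other nuclei limited these calls. Their median was 7 counts per element over the 4 libraries (80 per promoter), and 777 elements had none, 587 of which were called higher. With those elements set to the ratio that 3 counts over the 4 libraries give, the median log2 ratio was 1.31. Most elements passed the filter on counts through hepatocyte-like nuclei, where the median element had 595, 303, 135 and 88 counts at 0, 48, 72 and 96 h. With hepatocyte-like sums thinned to the depth of the other nuclei, 848 elements passed. Their median log2 ratio was 0.74, against -0.06 in all regions. The calls and medians above are therefore a description of these sums. Among the 3571 elements with at least 10 counts in other nuclei, 17.6% were called higher and 4.06% lower, against 11.5% and 5.80% of all such regions and 5.27% and 9.77% of promoters. Without the library of 0, 48 or 72 h, 594, 617 and 910 elements were called higher and 23, 35 and 71 lower, and without that of 96 h 1992 and 223. In each of these fits the share of elements called higher was above, and the share called lower below, that of all regions.

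The difference between the classes grew with distance from genes. Elements at 50 to 100 kb (3670) had a ratio of hepatocyte-like to other nuclei of 1.33, 1.31, 1.31 and 1.34 at 0, 48, 72 and 96 h. At 100 to 200 kb (2659) it was 1.61, 1.58, 1.43 and 1.42, and at 200 to 500 kb (1962) it was 1.99, 2.01, 1.91 and 2.22. Beyond 500 kb (600 elements) it reached 2.85 (95% interval 2.66 to 3.06), 2.60 (2.35 to 2.88), 3.22 (2.84 to 3.64) and 2.83 (2.27 to 3.53). The ratio beyond 500 kb was above that of the nearest group in every library. The 2 highest elements lay at 100 to 200 kb, and without the 5 highest of all elements that group gave 1.62, 1.63, 1.66 and 1.81. In edgeR's test 23.5%, 25.8%, 28.4% and 28.9% of the elements in these 4 groups were higher in hepatocyte-like nuclei, and 2.37%, 1.35%, 0.968% and 0.501% lower.

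GC content went with the ratio too. It was 2.09, 2.03, 2.08 and 2.47 in the 3088 elements with up to 43.7% GC, 1.68, 1.60, 1.62 and 1.84 in the 3002 elements above that and up to 49.0% GC, and 1.24, 1.26, 1.18 and 1.11 in the 2801 GC-richest elements. Within each of these groups the farther elements still had the larger ratio. From 50 to 100 kb to beyond 200 kb, it went at 0 h from 1.82 to 2.77 in the GC-poorest, from 1.55 to 2.02 in the middle and from 1.06 to 1.53 in the GC-richest elements. The same held in the libraries of 48, 72 and 96 h.

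**Figure D3:**
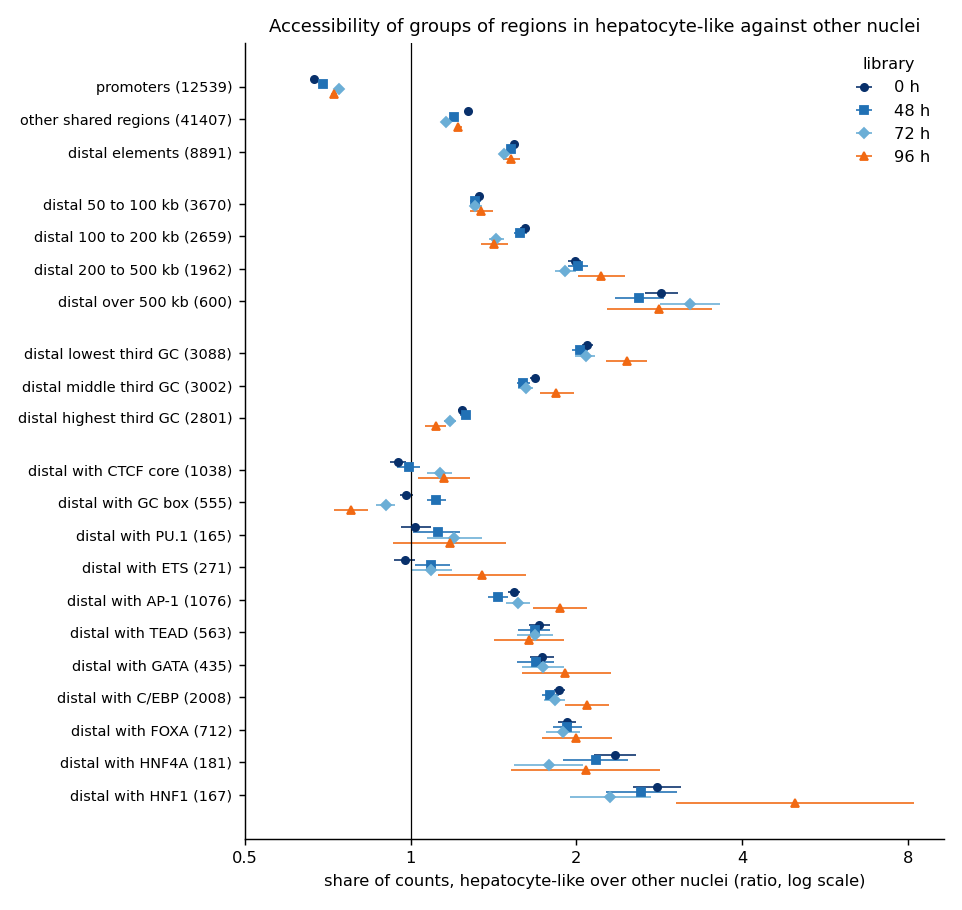
Share of counts in hepatocyte-like over that in other nuclei (x axis, ratio on a log scale) for groups of regions (rows, with the number of regions), 1 point per library (circle 0 h, square 48 h, diamond 72 h, triangle 96 h) with 95% intervals for counting error. All points of promoters lie below 1, elements beyond 500 kb reach 2.60 to 3.22, and elements with CTCF letters lie near 1.

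Elements with CTCF letters had ratios near 1. The ratio of 1038 elements with CTCF letters was 0.948, 0.993, 1.13 and 1.15, and that of 7853 elements without them 1.61, 1.58, 1.52 and 1.57. In edgeR's test 69 (6.65%) of the former and 2213 (28.2%) of the latter were higher in hepatocyte-like nuclei. CTCF letters went with a low ratio at other places as well: promoters with them had a ratio of 0.604 to 0.695 and other shared regions with them 0.785 to 0.850.

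Elements with letters of liver factors had ratios above that of all distal elements. HNF1 letters (167 elements) gave 2.80, 2.62, 2.30 and 4.99, the last with an interval of 3.03 to 8.22, and HNF4A letters (181) gave 2.35, 2.17, 1.78 and 2.08. FOXA letters (712) gave 1.92, 1.92, 1.89 and 2.0, and C/EBP letters (2008) gave 1.86, 1.79, 1.83 and 2.09. This held in every library. Higher calls made up 40.1%, 34.8%, 31.8% and 29.8% of the elements with HNF1, HNF4A, FOXA and C/EBP letters. Over all distal elements the ratio was 1.54, 1.52, 1.48 and 1.52, with 25.7% called higher. TEAD and GATA letters also gave ratios above that of all distal elements in every library, while their shares called higher were close to its share. The share called higher with AP-1 letters was above that with C/EBP letters. Values above those of all distal elements were therefore not particular to letters of liver factors. AP-1 letters (1076) gave 1.54, 1.44, 1.57 and 1.87 with 30.6% higher, TEAD letters (563) gave 1.71, 1.68, 1.68 and 1.64 with 25.4% higher, and GATA letters (435) gave 1.73, 1.69, 1.74 and 1.91 with 26.9% higher. Without 1 very high element AP-1 letters gave 1.66, 1.63, 1.79 and 2.01. The 5278 elements without CTCF, FOXA, HNF4A, C/EBP and HNF1 letters, some of which hold letters of other factors such as AP-1, had a ratio of 1.49, 1.48, 1.40 and 1.41. Their median GC content was 47.0% and their median distance 116 kb. The 2575 elements with liver letters and no CTCF letters had 45.0% and 133 kb. GC content and distance both went with the ratio, and their part in the motif ratios was not tested.

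The same letters were also looked at in promoters and other shared regions. Promoters with FOXA letters had a ratio of 0.749 to 0.818 and promoters with C/EBP letters 0.789 to 0.839, below 1 like promoters as a whole. Promoters with HNF4A letters (68) and HNF1 letters (37) were above 1, with ratios of 1.1 to 1.3 and 1.80 to 2.30. Other shared regions were above 1 with FOXA letters (1.44 to 1.5), HNF4A letters (1.48 to 1.71) and C/EBP letters (1.3 to 1.46), so ratios above 1 were not particular to distal elements. Distal elements with PU.1 letters, ETS letters and the GC box had ratios of summed counts closer to 1 than all distal elements. PU.1 letters (165) gave 1.02, 1.12, 1.20 and 1.18, and ETS letters (271) gave 0.977, 1.09, 1.09 and 1.35. The GC box (555) gave 0.980, 1.11, 0.901 and 0.780, or 0.791, 0.900, 0.936 and 0.864 without 1 element of very high counts. Of the elements with PU.1 letters, ETS letters and the GC box, edgeR called 20.6%, 23.3% and 16.2% higher in hepatocyte-like nuclei and 6.67%, 5.56% and 6.68% lower. Of all distal elements 25.7% were called higher and 1.63% lower, and of those with CTCF letters 6.65% and 0.674%. The median fitted log2 ratio was 1.01, 1.07 and 0.47 with PU.1 letters, ETS letters and the GC box, against 0.57 with CTCF letters and 1.45 over all distal elements.

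The 359 elements at a lncRNA TSS had a ratio of 1.16, 1.29, 0.962 and 0.845, which turned on 2 of the 5 highest elements and was 0.920, 1.02, 1.05 and 1.07 without them. In edgeR's test 79 (22.0%) were higher in hepatocyte-like nuclei and 22 (6.13%) lower, against 25.7% and 1.63% of all distal elements and 7.14% and 8.94% of promoters. Their median fitted log2 ratio was 0.58, between the 1.45 of all distal elements and the -0.28 of promoters. Elements outside lncRNA genes had a ratio of 1.64, 1.61, 1.63 and 1.73, with 25.7% higher and 1.31% lower.

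The 5 elements with the largest fitted ratio had no count at all in other nuclei of any library. Mug2 95.4 kb (chr6:122100854-122103372), downstream of a gene for a protease inhibitor that the liver secretes, had 20.4, 18.3, 16.4 and 18.5 CPM in hepatocyte-like nuclei. At that level 50.3 counts would be expected in the other nuclei, and by the exact interval on the count divided by 2, since a fragment can give 2 counts, it was at least 6.82-fold higher in hepatocyte-like nuclei. A floor of 3 counts over the 4 libraries, which takes each count as independent, gives a ratio of 16.8 and is no bound where they come in pairs. The limit from the exact interval was 5.64-fold for Zfp608 81.3 kb, 5.07-fold for Insig2 63.6 kb and 4.89-fold for Slc10a2 74.3 kb. These elements were chosen by their fitted ratio and passed the filter on counts through hepatocyte-like nuclei alone, so their values are a description. INSIG2 retains SREBP in the endoplasmic reticulum and SLC10A2 takes up bile acids. Slc10a2 74.3 kb had 13.7, 14.1, 12.5 and 17.2 CPM in hepatocyte-like nuclei.

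The 4 elements with the lowest adjusted p among those called higher are given next, a choice made after their values were seen. Dio3 257 kb (chr12:110017944-110026150), upstream of the gene for a deiodinase that inactivates thyroid hormone, had 109, 67.4, 64.6 and 90.8 CPM in hepatocyte-like nuclei and 17.1, 6.58, 9.03 and 0 in other nuclei (25, 4, 4 and 0 counts). It was 7.23-fold higher in hepatocyte-like nuclei (95% interval 4.59 to 13.0, edgeR log2 ratio 3.19, SE 0.43, adjusted p = 7.5e-11). Pcsk6 54.2 kb, near a proprotein convertase gene, had 199, 110, 107 and 100 against 36.9, 32.9, 13.5 and 0 CPM, 5.22-fold (edgeR adjusted p = 3.4e-10), and holds FOXA and C/EBP letters. Cyp2d34 50.6 kb had 120, 54.6, 47.9 and 60.7 against 13.7, 13.2, 0 and 18.1 CPM, 7.89-fold (95% interval 4.78 to 14.1, edgeR adjusted p = 3.5e-09). Its 300 bp window is 100% repeat and it overlaps the pseudogene Cyp2d36-ps, so its counts may be shared with near-identical copies and are uncertain. Prox1 62.0 kb, beyond the gene of a transcription factor of hepatocytes and lymphatic endothelium, had 38.0, 34.1, 34.0 and 35.7 against 0.683, 0, 9.03 and 0 CPM, 19.1-fold with a wide interval of 6.60 to 197, since other nuclei had 5 counts in all (edgeR adjusted p = 1.4e-08). In all 4 the lowest hepatocyte-like level was above the highest level in other nuclei.

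Of the elements shown as sequences, Asap1 65.9 kb had 25.1, 20.7, 22.2 and 29.0 CPM in hepatocyte-like nuclei and 6.83, 1.65, 0 and 0 in other nuclei (edgeR adjusted p = 0.00014). Irx4 100 kb and Cdk15 69.4 kb, with CTCF letters, were also higher in hepatocyte-like nuclei, 3.91-fold and 6.44-fold (edgeR adjusted p = 0.010 and 0.0010), so they belong to the 69 elements with CTCF letters that were called. Spag9 50.3 kb had 173, 127, 120 and 113 CPM against 60.1, 79.0, 65.4 and 117 (edgeR adjusted p = 0.0063), and the classes were alike at 96 h, where other nuclei had 13 counts.

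The elements that were lower in hepatocyte-like nuclei were few. Klf4 119 kb (chr4:55650263-55653052), upstream of a Kruppel-like factor gene, had 2.89, 8.71, 12.4 and 4.72 CPM in hepatocyte-like and 109, 79.0, 85.8 and 117 in other nuclei, 16.7-fold higher in the latter (edgeR log2 ratio -3.65, SE 0.39, adjusted p = 1.6e-17). Klf10 73.9 kb, near another gene of this family, had 5.46, 4.96, 6.07 and 3.56 against 60.8, 64.2, 51.9 and 90.3 CPM (11.4-fold, edgeR adjusted p = 3.9e-13). They had the lowest adjusted p of this direction and were named after their values were seen.

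By the rule on the fitted ratio, the most extreme was Maf 56.8 kb (chr8:115650077-115650575), beyond the gene of a bZIP factor, with 0.404, 0.0375, 1.03 and 0.205 CPM in hepatocyte-like and 32.8, 6.58, 29.3 and 18.1 in other nuclei (61.2-fold, edgeR adjusted p = 8.8e-10). Akr1e1 162 kb had 1.52, 1.28, 2.40 and 1.78 against 58.1, 29.6, 33.9 and 9.03 CPM (27.9-fold, edgeR adjusted p = 3.8e-10), and Ccnd2 114 kb, upstream of the cyclin D2 gene, 0.784, 2.72, 5.03 and 0.547 against 43.0, 46.1, 36.1 and 18.1 CPM (21.4-fold, edgeR adjusted p = 4.0e-10). Mtss1 63.8 kb and Klf7 181 kb were 18.2-fold and 19.6-fold higher in other nuclei, on 33 and 30 counts. The call of Klf7 181 kb was lost with nuclei of at least 3000 counts (edgeR adjusted p = 0.053). The 5 elements, chosen by their ratio, were merged regions of 401 to 1223 bp, and 2 of them were centred within 1 kb of a lncRNA TSS.

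The levels of the distal elements were uneven. The median element had 4.81, 5.69, 6.35 and 6.02 CPM in hepatocyte-like nuclei against 20.2, 19.4, 20.7 and 21.7 CPM at the median promoter. The top 10% of elements held 34.4% to 41.8% of all counts in distal elements, and the 5 highest held 5.14% to 6.47%. Of these 5, 4 were merged regions of 6281 to 174719 bp.

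The highest, Esp38 105 kb (chr17:39842773-39849053), overlaps Rn18s-rs5, a copy related to 18S ribosomal RNA. It had 2629, 3095, 3128 and 4364 CPM in hepatocyte-like nuclei and 1294, 1465, 3751 and 6449 in other nuclei, so other nuclei were lower at 0 and 48 h and higher at 72 and 96 h (edgeR adjusted p = 0.022, called higher in hepatocyte-like nuclei). Ribosomal RNA genes exist in many near-identical copies, and which copy these reads came from is uncertain. Axin2 68.3 kb showed the same order, with 185, 239, 229 and 331 against 94.3, 92.2, 244 and 452 CPM, and was likewise called higher in hepatocyte-like nuclei (edgeR log2 ratio 0.77, adjusted p = 0.036). Klf14 177 kb, a merged region of 174719 bp that contains Mir29a, Mir29b-1 and Lncpint, had 1320, 1108, 734 and 609 against 1267, 1578, 1243 and 677 CPM (edgeR adjusted p = 0.93). Cyp2d40 70.5 kb, a 33012 bp region over 3 pseudogenes of the cytochrome P450 family Cyp2d, had 309, 165, 111 and 79.9 against 53.3, 62.5, 54.2 and 54.2 CPM (4.18-fold, edgeR adjusted p = 1.0e-05), and reads of its near-identical gene copies cannot be told apart here.

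The distal elements were spread over 2572 nearest genes, with a median of 2 elements per gene, and 19 genes had 20 or more. These 19 include genes of transcription factors and of insulin and growth signalling. Adgrl2, an adhesion receptor gene, had 46 elements at 52.7 to 997 kb, which summed to 380, 511, 569 and 561 CPM in hepatocyte-like and 205, 235, 237 and 217 CPM in other nuclei, a ratio of 1.86, 2.17, 2.40 and 2.59. In edgeR's test 19 of the 46 (41.3%, against 25.7% of all distal elements) were higher in hepatocyte-like nuclei and 0 lower, and 23 held letters of liver factors. Myc, a factor of cell growth, had 39 elements with 386, 400, 362 and 346 against 219, 332, 334 and 289 CPM, of which 10 (25.6%, as in all distal elements) were called higher and 2 lower. The share of elements called higher ran from 9.09% to 65.2% over the 19 loci.

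Ratios above 2 in every library were seen at Dio3 and Foxa2, among others. The 23 elements near Dio3 summed to 565, 378, 415 and 467 CPM in hepatocyte-like and 97.7, 79.0, 115 and 172 CPM in other nuclei (5.78, 4.78, 3.61 and 2.72-fold), and 15 of them (65.2%) were called higher. The 24 elements near Foxa2, itself a gene of the FOXA family, had 343, 437, 411 and 359 against 97.0, 127, 144 and 90.3 CPM (3.54, 3.45, 2.84 and 3.97-fold), with 9 (37.5%) called higher. At Sox9, a gene of bile duct and progenitor cells, 28 elements had 242, 229, 369 and 334 against 113, 87.2, 194 and 163 CPM, and 13 (46.4%) were called higher. The 29 elements near Pik3r1, a regulatory subunit of phosphoinositide 3-kinase, and the 23 near Irs2, an insulin receptor substrate, had ratios of 1.97 to 3.35 and 1.60 to 2.82.

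Of the 19 loci, 1 went the other way. The 22 elements near Smim15 summed to 257, 313, 389 and 388 CPM in hepatocyte-like and 486, 553, 575 and 632 CPM in other nuclei (0.528 to 0.676-fold), and of them 2 (9.09%) were called higher and 3 lower in hepatocyte-like nuclei. The strongest of the latter, Smim15 368 kb, had 2.83, 3.92, 8.23 and 3.14 against 71.7, 49.4, 63.2 and 9.03 CPM (edgeR adjusted p = 2.0e-10). The 23 elements near Adam6a, a gene beside the immunoglobulin heavy chain genes, were set apart by sequence, since 12 of them held CTCF letters, against at most 3 at each of the other 18 loci. They had 91.1, 123, 160 and 164 against 47.8, 75.7, 54.2 and 45.2 CPM, on 5 counts in other nuclei at 96 h.

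**Figure D4:**
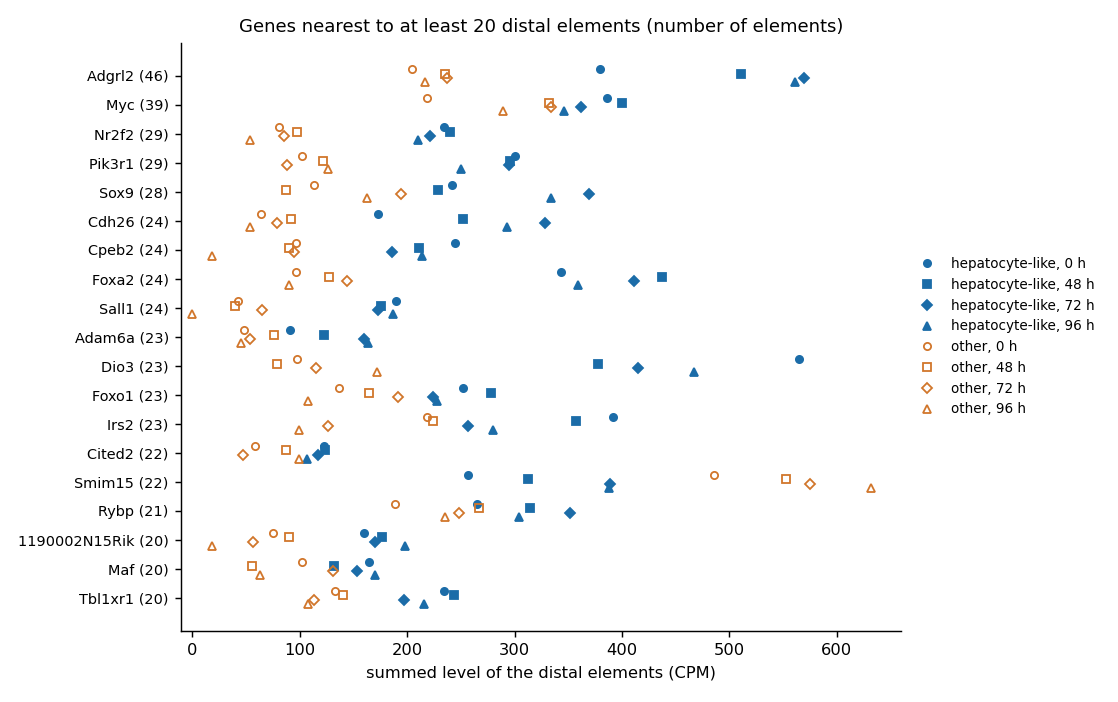
Summed level (x axis, CPM) of the distal elements nearest to each of 19 genes with at least 20 of them (rows, number of elements in brackets), in hepatocyte-like (filled) and other nuclei (open), 1 symbol per library. Smim15 is the row in which other nuclei lie above hepatocyte-like nuclei in every library, with 486 to 632 against 257 to 389 CPM.

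RefSeq microRNA genes lie in 9 of the elements. Mir148a, a microRNA abundant in hepatocytes, lies in an element 164 kb from Nfe2l3 with 61.5, 67.4, 66.6 and 58.9 CPM in hepatocyte-like and 18.4, 29.6, 27.1 and 18.1 in other nuclei (edgeR log2 ratio 1.66, SE 0.38, adjusted p = 0.00051). The elements of Mir137, Mir802, Mir365-2 and Mir193a were called higher in hepatocyte-like nuclei too (edgeR adjusted p = 0.00084, 0.0094, 0.018 and 0.035). That of Mir365-2 went the other way at 96 h, with 22.2 against 36.1 CPM, on 4 counts in other nuclei. The elements of Mir101a, Mir5099, Gm51276 and the Mir29a and Mir29b-1 pair were not called, with edgeR adjusted p from 0.88 to 0.94. Mir101a had 133, 71.9, 71.5 and 84.6 against 142, 105, 81.2 and 135 CPM.

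Distal elements had a slightly higher median ratio to 0 h than promoters in hepatocyte-like nuclei at each later time. After all 4 libraries were thinned to 14626850 counts, with a pseudocount of 5, the median log2 ratio to 0 h was 0.10, 0.25 and 0.25 at 48, 72 and 96 h for distal elements (6238, 6704 and 6453 of which reached 50 thinned counts on average). It was -0.07, 0.06 and 0.18 for promoters and 0.07, 0.13 and 0.08 for all shared autosomal regions. The difference from promoters was 0.17, 0.19 and 0.07. The share of counts in distal elements was 7.76% at 0 h and 8.50% at 96 h, but that of promoters was also higher at 96 h (34.9% against 31.3%) and by the larger factor, so by shares distal elements were not ahead of promoters at 96 h.

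Peaks were called library by library, and their lengths went with these ratios. The median length of the peaks in an element was 850, 935, 827 and 466 bp at 0, 48, 72 and 96 h. In the elements whose single peak differed by at most 10% in length from that of 0 h, the median log2 ratio was -0.01, 0.37 and 1.39 (2898, 2360 and 279 elements), against -0.15, 0.19 and 1.29 for promoters and -0.04, 0.32 and 1.35 for all such regions. Since a peak's length was set in its own library, keeping peaks of the 0 h length can also select regions by their change, above all at 96 h, where 279 elements were left and the median of all such regions was 1.35. The 96 h values in this set are therefore not read as a difference from promoters, which was 0.14 and 0.18 at 48 and 72 h. Counted as the share of nuclei with at least 1 count, the difference was 0.00, -0.11 and -0.16, so its direction turned at 72 and 96 h.

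Elements that differed from 0 h by 2-fold or more were counted, and without replicates none of this was tested. At least 2-fold higher were 294 elements at 48 h (4.71%, against 5.63% of all regions), 879 at 72 h (13.1%, against 11.3%) and 780 at 96 h (12.1%, against 7.68%). At least 2-fold lower were 68 at 48 h (1.09%, against 0.843%), 203 at 72 h (3.03%, against 3.47%) and 321 at 96 h (4.97%, against 7.96%). Most of these shares were near the background, and the distance was widest at 96 h. The counts changed with how peak length was treated. Per kb of peak, 23, 69 and 71 elements were at least 2-fold higher and 14, 52 and 57 lower. Higher ones per kb were 0.369%, 1.03% and 1.1%, near or below the 0.438%, 1.1% and 1.46% of all regions. Lower ones per kb were 0.224%, 0.776% and 0.883%, against 0.184%, 0.752% and 0.997%. With peaks of nearly equal length 9, 157 and 238 were higher and 2, 0 and 0 lower. By nuclei with a count, 37, 86 and 85 were higher and 56, 243 and 291 lower. Higher ones were 0.816%, 1.9% and 1.89%, against 1.63%, 3.34% and 2.01% of all regions. Lower ones were 1.23%, 5.37% and 6.47%, against 0.815%, 5.11% and 8.8%. The balance turned, but at 72 and 96 h lower regions outnumbered higher ones over all regions as well. These counts of higher elements at nearly equal length were 0.311%, 6.65% and 85.3% of the elements measured so, against 0.179%, 5.54% and 78.5% of all such regions.

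**Figure D5:**
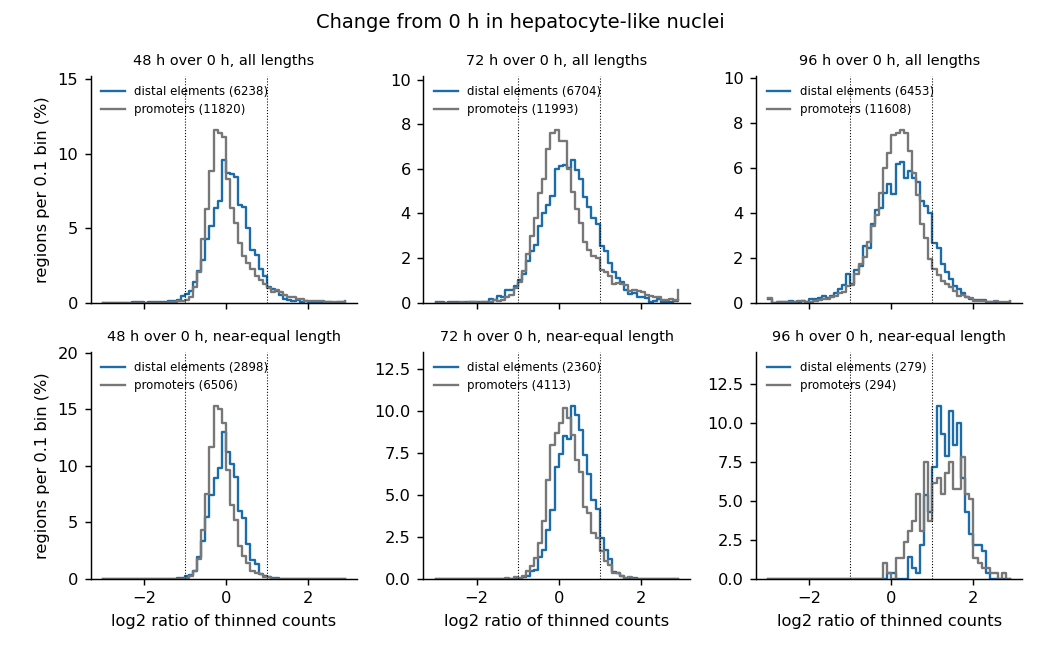
Distribution of the log2 ratio of thinned counts at 48, 72 and 96 h over 0 h in hepatocyte-like nuclei (x axes; values beyond 3 are in the outermost bins), as percent of regions per bin of 0.1 (y axes), for distal elements (blue) and promoters (grey), over all peak lengths (top) and peaks of nearly equal length (bottom). Dotted lines mark 2-fold. Medians of distal elements are 0.10, 0.25 and 0.25 in the top row and -0.01, 0.37 and 1.39 in the bottom row.

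Of the motif groups, the one with CTCF letters had the highest median ratio to 0 h at each time, which describes these libraries and was not tested. Their median log2 ratio was 0.24, 0.54 and 0.60 at 48, 72 and 96 h (577, 676 and 681 elements), against 0.08, 0.21 and 0.21 in elements without CTCF letters. With peaks of nearly equal length it was 0.17 and 0.55 at 48 and 72 h, against -0.03 and 0.34, and 1.42 against 1.39 at 96 h, where 49 elements with CTCF letters were left. Over all lengths promoters with CTCF letters had 0.12, 0.24 and 0.25 and other shared regions with CTCF letters 0.19, 0.33 and 0.29, against 0.07, 0.13 and 0.08 of all regions. With peaks of nearly equal length these other shared regions had 0.13, 0.43 and 1.34, against -0.04, 0.32 and 1.35 of all such regions, so the higher ratios at 48 and 72 h were not particular to distal elements. The group with HNF4A letters had the lowest, with -0.02, -0.03 and 0.00 (136, 139 and 139 elements). Of the elements with CTCF letters 2.43%, 18.6% and 22.9% were at least 2-fold higher at 48, 72 and 96 h, against 2.94%, 7.19% and 4.32% of those with HNF4A letters. Of all shared autosomal regions 5.63%, 11.3% and 7.68% were, so at 48 h both groups were below the background.

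Distance and GC content showed smaller differences over time than between the classes of nuclei. The median log2 ratio was 0.11, 0.11, 0.09 and 0.02 at 48 h in the groups from 50 to 100 kb to beyond 500 kb, 0.24, 0.25, 0.27 and 0.25 at 72 h and 0.21, 0.24, 0.31 and 0.47 at 96 h, so the order with distance at 48 h was opposite to that at 96 h. The 3 GC groups had 0.05, 0.11 and 0.14 at 48 h, 0.15, 0.25 and 0.34 at 72 h and 0.22, 0.26 and 0.28 at 96 h, from GC-poor to GC-rich.

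The elements named for the largest ratio at 48 h, among those with peaks of nearly equal length, had low counts, so CPM before thinning is given. The choice used a single random thinning. In it Diaph3 74.1 kb and Sox9 308 kb were 2.13-fold and 2.07-fold of 0 h, more than their CPM before thinning show. Pik3c2g 53.9 kb, near a phosphoinositide kinase gene, had 6.0 (95% interval 5.4 to 6.64), 11.8 (10.6 to 13.2), 12.2 and 7.73 CPM, and was back near its 0 h level at 96 h, where its peak was 726 bp long against 1545 bp. Fermt1 168 kb had 3.27, 5.93, 8.79 and 10.3 CPM, Diaph3 74.1 kb had 3.54, 5.24, 6.77 and 9.23 CPM, and Sox9 308 kb had 4.77, 6.89, 8.94 and 9.16 CPM. These 3 were higher in each later library, although their 96 h peaks were shorter than those of 0 h. Fut10 324 kb had 4.20, 8.54, 6.40 and 6.08 CPM.

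Among the 5 elements with the lowest ratio at 48 h, 2 were well above the median element at 0 h. Lpp 169 kb (chr16:24221656-24227182), in the lncRNA gene Gm31814, had 63.1 (61.1 to 65.1), 32.2 (30.1 to 34.4), 20.6 and 17.5 CPM, and Ugp2 55.9 kb, upstream of a gene of glycogen synthesis, had 61.9, 35.5, 20.2 and 20.5 CPM. Their peaks shortened as well, from 5527 to 2022 bp and from 5262 to 1723 bp at 96 h. Both were higher in hepatocyte-like than in other nuclei (4.55-fold and 2.47-fold, edgeR adjusted p = 0.00093 and 0.042). Cldn1 112 kb had 7.56, 4.24, 3.06 and 3.90 CPM, and Fzd7 90.6 kb had 6.5, 4.47, 4.66 and 4.65 CPM. In the thinned counts these elements were at 0.454 and 0.517 of 0 h at 48 h, larger falls than their CPM before thinning show.

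Levels at the edges of the rule varied. Just inside 50 kb, Egfem1 at 50009 bp had 1.27, 1.82, 2.40 and 1.78 CPM and Akr1d1 at 50031 bp had 4.08, 3.34, 2.77 and 4.24 CPM. Just outside, Zfp648 at 49990 bp had 7.87, 9.84, 10.4 and 11.8 CPM and Kcne2 at 49986 bp had 1.37, 4.19, 4.33 and 3.97 CPM. The 3 farthest elements all lay upstream of Cdh20 on chromosome 1, at 2207, 2140 and 2034 kb. The first had 3.83, 2.95, 4.61 and 4.38 CPM, the second 1.80, 2.61, 2.68 and 2.94 CPM and the third 8.05, 11.8, 11.9 and 12.6 CPM, and only the third was called higher in hepatocyte-like nuclei (3.20-fold, edgeR adjusted p = 0.042).

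A wider or stricter definition moved the ratio of hepatocyte-like to other nuclei as the distance groups did. With a limit of 20 kb (14595 elements) it was 1.40, 1.38, 1.36 and 1.37, and with 100 kb (5221 elements) 1.77, 1.75, 1.64 and 1.69. Outside the bodies and at least 50 kb from the TSS of all annotated genes, lncRNA genes included, 2533 elements were left, with a ratio of 1.82, 1.84, 1.87 and 2.05.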

How the data were processed

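Nuclei of 4 libraries of mouse liver hepatocytes were measured by scATAC-Seq, with 1 library per time point after PHx. The authors aligned reads to mm10 and called peaks and counted cut sites per peak and barcode with Cell Ranger ATAC (software version 1.1.0 in the file header), and the counts and peaks were used as deposited. A fragment with both ends in a peak adds 2 counts, so intervals (95%, exact) were computed on the count divided by 2 and cover counting error only. Reads of near-identical copies could not be told apart.

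Regions came from merging the peaks of the 4 libraries, and TSS from GENCODE vM21 (GRCm38). The members, lists and comparisons were chosen with earlier results of these data known. Genes and microRNAs of RefSeq were added by position. Barcodes with at least 1000 counts were kept, no doublet caller was run, and nuclei were clustered (TF-IDF, 30 components, 30 neighbours, Leiden resolution 0.5, leidenalg 0.10.2) on shared autosomal regions other than distal elements and promoters. Clusters were classed by 10 hepatocyte markers, and lists of endothelial, myeloid, stellate, biliary and lymphocyte markers were summed as well. Deposited counts were summed per library and class (8 sums) and tested with edgeR 4.0.16 (R 4.3.3) quasi-likelihood with library as a block, Benjamini-Hochberg adjustment over all regions and a minimum mean count of 10 over the sums. On simulated counts with 200 regions changed 4-fold, it recovered 55.0% with 0 false calls. The changed regions were drawn from those with high counts, above the level of the median distal element. Recovery at elements with fewer counts was not measured. DESeq2 1.42.0 was an alternative. Each class holds cells of the same 4 libraries, so p-values measure the spread between these libraries. Fold values of single elements compare the counts expected in other nuclei at the hepatocyte-like share with those observed.

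Ratios over time used hepatocyte-like sums thinned to 14626850 counts, a pseudocount of 5 and a minimum mean thinned count of 50, and are on the log2(value + pseudocount) scale. Motifs were matched in 300 bp windows on both strands of GRCm38. Motifs were counted separately, so 1576 elements count under more than 1 motif, and 212 hold both CTCF and liver letters. Named elements were the 5 with the highest mean CPM in hepatocyte-like nuclei, the 5 with the highest and the 5 with the lowest ratio at 48 h among peaks within 10% of the 0 h length, the 5 with the largest and the 5 with the smallest fitted ratio between classes among those called, the 3 farthest from a TSS and those nearest the 50 kb limit. Of the elements named by these rules, 2 are not reported here. Other named elements were chosen after their values were seen.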

Additional observations from a re-analysis of the deposited data

How the results depend on the processing

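No paired analysis was possible because, for the comparison over time, each time point is 1 library and all replicate numbers are 1. Between classes the library was the block in edgeR's test, and with no library block 2825 elements were called higher and 257 lower, against 2282 and 145. Leaving out 1 library each gave 594 to 1992 elements called higher and 23 to 223 lower, from fits of fewer sums. Nuclei with at least 3000 counts (libraries of 0, 48 and 72 h) gave 361 higher and 26 lower, and hepatocyte-like sums thinned to the depth of the other nuclei 376 and 72 of only 848 elements tested, 44.3% and 8.49% against 21.8% and 11.3% of all regions, with a median log2 ratio of 0.74. DESeq2 gave 3122 and 164. In every fit the share called higher was 1.13 to 2.04 times, and the share called lower 0.305 to 0.753 times, that of all regions.

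The ratio of the distal share between classes stayed above 1 at 0, 48, 72 and 96 h in all alternatives but 1. In regions with 1 peak of nearly equal length in every library, distal elements took 41.2%, 40.0%, 37.5% and 40.3% of counts in hepatocyte-like and 25%, 26.2%, 40.7% and 45.5% in other nuclei, a ratio of 1.65, 1.52, 0.922 and 0.886. That set without the 5 highest elements gave 1.21, 1.23, 1.25 and 1.29. This last set and the following alternatives for the ratio were added after the data were seen. Without the 5 highest elements of all it was 1.55 at 72 h and 1.65 at 96 h. With cluster 6 alone as other nuclei it was 1.59, 1.58, 1.52 and 1.66, and with cluster 7 alone 1.51, 1.49, 1.41 and 1.3. At 72 h it was 1.31 in nuclei with at least 3000 counts and 1.45 with clusters on all shared regions.

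Over time, the median difference from promoters was 0.0 at 48 h and turned direction at 72 and 96 h when nuclei with a count were compared (-0.11 and -0.16), and the cause was not tested. It was 0.14 at 48 h with peaks of nearly equal length, 0.11, 0.10 and 0.13 per kb of peak, 0.21 and 0.26 at 48 and 72 h with no minimum count, and 0.04 at 96 h both in nuclei with at least 3000 counts and without the 5% of nuclei with the most counts. Elements at least 2-fold higher at 48, 72 and 96 h numbered 9, 157 and 238 with peaks of nearly equal length. Per kb of peak they numbered 23, 69 and 71. By nuclei with a count they numbered 37, 86 and 85 (0.816%, 1.9% and 1.89%, against 1.63%, 3.34% and 2.01% of all regions). With no minimum count they numbered 667, 1596 and 1383. That share was 7.5% at 48 h, close to the 7.71% of all regions. At 96 h it was 15.6% against 9.91%, and at 72 h it was also above the 14.1% of all regions. Elements at least 2-fold lower numbered 2, 0 and 0 with peaks of nearly equal length, 14, 52 and 57 per kb and 56, 243 and 291 by nuclei with a count. The last outnumbered the higher ones at each time, as over all regions at 72 h (5.11% against 3.34%) and 96 h (8.8% against 2.01%). With no minimum count 117 were lower at 48 h (1.32%, against 0.936% of all regions) and 728 at 96 h (8.19%, against 10.7%). Scaled to the promoter total, 42 elements were lower at 48 h (0.673%, against 0.554% of all regions) and 506 higher at 96 h (7.84%, against 4.99%).

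Limits of 20 kb and 100 kb, and the bodies and TSS of all genes, gave 14595, 5221 and 2533 elements. The share of distal elements with a motif over that of promoters was, in windows of 200 bp, 2.82 for CTCF, 5.72 for HNF4A and 3.23 for C/EBP. In windows of 500 bp it was 1.98 for CTCF, 2.78 for FOXA, 2.44 for C/EBP and 0.137 for the GC box. In windows on the centre of the merged region it was 2.71 for CTCF, 2.51 for FOXA, 2.37 for C/EBP, 2.23 for AP-1, 2.04 for TEAD, 2.53 for GATA and 0.133 for the GC box. Of 406 alternative values, 279 kept their direction, call and size, 122 moved, 1 call of a named element was lost and 4 values turned direction. Counts in other nuclei (median of 7 per element) limit single calls.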
